A study of Sus scrofa with 13 samples.

Results

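Heart muscle from pigs whose infarct was treated with saline alone was described by what it expressed most and by which genes differed most from animal to animal. The group was chosen by its labels: the 6 arrays of the saline group, of 13 arrays in the series, with the 7 arrays of hearts given stem cells used only to ask whether the same spread recurred there. All animals were female Sinclair miniswine, which are pigs of a small breed, operated on at 3 months of age, when diagonal branches off the left anterior descending coronary artery were tied off for good. Each saline animal then received 2 ml saline spread over 5 injections into the border zone around the infarct, and each of the 7 other animals 50000000 stem cells in 2 ml saline at matching sites. Drill biopsies, which are small cores of heart wall, were taken at month 4. Each animal gave 1 Affymetrix porcine array, so variation between animals, between biopsy sites and between arrays cannot be told apart, and 6 arrays set how precisely any value is known. Where each core lay relative to the infarct was not given, and no uninfarcted heart was analysed here, so nothing below compares infarcted with healthy muscle.

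A healed infarct is a collagen scar bordered by surviving muscle. Ventricular muscle cells devote most of their messenger RNA to the contractile filaments, to the mitochondria that fuel them and to the translation machinery, while fibroblasts, vessel cells and macrophages supply the matrix and the inflammatory signals of repair. Immediate early genes and cytokine genes can be switched on within minutes to hours of a stimulus, including surgery, whereas filament and mitochondrial genes turn over slowly.

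The 6 arrays had median probe set intensities of 13.4 to 13.9 and correlated pairwise at 0.955 to 0.984 over all 14399 probe sets above the filter on low values, a log2 intensity of 3.36. That filter left 5196 named genes, and a further 1569 named genes lay below it. Each gene was represented by its brightest probe set. Replicate 2 was at one end of the control probe readings: the log2 ratio of 3′ to 5′ signal, which rises as RNA is shortened, was 4.20 for actin against 2.21 to 3.80 in the other 5 arrays, and 1.12 for GAPDH against 0.101 to 0.529. For elongation factor 1 alpha, replicate 2 instead had the lowest such ratio, 0.798 against 0.880 to 1.07. Replicate 2 was also the highest array for 29.7% of all genes, and replicates 5 and 6 were the 2 highest arrays for 7.24%. These animals were singled out after the values were seen, so counts of genes highest or lowest in them describe the ranking and support nothing beyond it. For the 30 most variable genes and the gene lists, leaving out animals changed some printed SDs by over 1.5 times. In those cases the SD without replicates 5 and 6, or without the 1 animal that moved it, is given too.

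Cell type markers showed ventricular muscle mixed with other cells. Of 8 ventricular muscle markers, 6 were named on the array and all 6 were bright: the ventricular myosin light chain MYL2 averaged 14.70 ± 0.10 (SD, n = 6) on the log2 scale, the myosin heavy chain MYH7 14.61 ± 0.11 and the cardiac troponins TNNT2 and TNNI3 14.79 and 13.89. The 4 preset skeletal muscle markers on the array were near or below the filter, with MYH2 at 3.13, TNNT3 at 3.31, MYLPF at 2.56 and TNNI2 at 4.25. A fast skeletal gene outside that set, MYL1, was above it, with a mean of 7.63 and a range of 4.89 to 10.22. The epithelial and mesothelial keratin KRT19 was at 1.90, and the T cell receptor component CD3E at 2.72. The T cell surface protein CD2, at 3.66, lay just above the filter. Fibroblast (DCN 13.14, LUM 12.21), endothelial (PECAM1 10.42, CDH5 10.17), smooth muscle (ACTA2 11.83) and macrophage (CD163 8.92) markers were present as well, so every biopsy was a mixture of cells. Other members of these sets were dim. Endothelial KDR averaged 2.69, below the filter, fibroblast COL1A2 and COL3A1 3.52 and 3.48, and macrophage CD14 and C1QA 4.10 and 6.90. Of the atrial markers, NPPA averaged 11.43, MYL4 8.08 and SLN 5.16. In such bulk tissue, fewer cells of a type and less RNA per cell cannot be told apart.

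The most abundant messages came from the sarcomere, the mitochondrion and the ribosome. The 30 genes with the highest mean lay between 14.18 and 15.15 on the log2 scale, where the middle gene of all 5196 lay at 6.85. Contractile genes among them were TNNT2, TNNC1, MYL2, ACTC1, MYH7 and TPM1, which encode the troponins T and C, a light chain and the heavy chain of myosin, cardiac actin and tropomyosin. PDLIM5, a Z-disc protein, and ATP2A2, the pump that returns calcium to the sarcoplasmic reticulum, belonged to the same 30. Brightness also depends on how well each probe set binds its target, so this is an order of intensities and not of RNA amounts. The brightest value on each array was 38800 to 43900 before logs, and whether the scanner's upper range narrowed the spread of these genes was not tested.

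Cardiac troponin T shows how little these genes moved. TNNT2 read 14.88, 14.79, 14.77, 14.76, 14.78 and 14.74 in replicates 1 to 6, an SD of 0.051. The slow skeletal and ventricular myosin heavy chain MYH7 read 14.71, 14.72, 14.50, 14.58, 14.66 and 14.46, with replicates 3 and 6 lowest. All 30 had an SD under 0.305, the median of all genes, and the median SD of the 30 was 0.0942.

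Energy genes made up a second block of the 30. SLC25A4, the heart form of the carrier that exchanges ATP for ADP across the inner mitochondrial membrane, averaged 14.79 ± 0.087 (SD, n = 6). CKM, the muscle creatine kinase that buffers ATP at the filaments, averaged 14.32 ± 0.09, and LDHB, the lactate dehydrogenase subunit typical of heart, 14.46 ± 0.09. ATP5A1, the alpha subunit of ATP synthase, averaged 14.18 ± 0.11. UQCRB, a subunit of respiratory complex III, had the widest spread of the 30, an SD of 0.236, with 13.97 in replicate 2 and 14.61 in replicate 3. Without replicate 2 its SD was 0.148.

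The third block was translation. RPL31 led the ranking at 15.15 ± 0.15 (SD, n = 6), with 14.97 in replicate 1 and 15.40 in replicate 3. RPLP0, RPL17, RPL13A, RPS20, RPL23, RPL24, RPL4, RPL9, RPS12 and RPL7 followed, all of them proteins of the cytosolic ribosome. An elongation factor 1 alpha probe set, listed under the symbol EF1ALPHA, averaged 14.30 and ran from 13.96 in replicate 6 to 14.63 in replicate 2. A separate entry for this factor, under the symbol EEF1A1, averaged only 8.59, so its level depends on the probe set. TPT1, a small growth-related protein whose message is controlled by translation, averaged 14.65 ± 0.11, and FTH1, the ferritin heavy chain that stores iron, 14.29 ± 0.05. LOC100516480 has no gene name in the tables used here. ACTG1, GAPDH and UQCRB were read by probe sets that can match related transcripts, so their levels are uncertain.

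**Figure D1:**
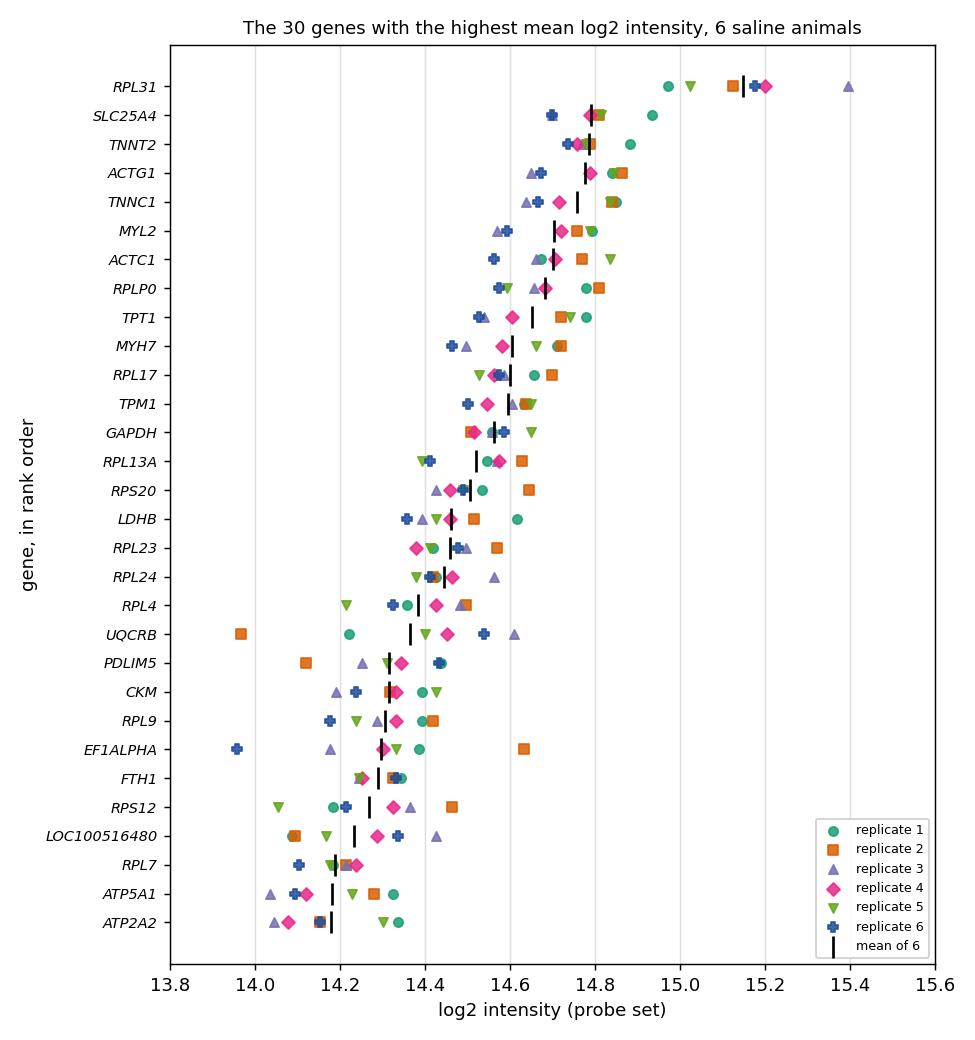
Log2 probe set intensity (horizontal axis) of the 30 genes with the highest mean, in rank order (vertical axis), with 1 symbol per saline animal and a black bar at the mean of 6. The means run from 15.15 for RPL31 to 14.18 for ATP2A2, and the animals of most genes overlap those of the next gene in rank.

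The order within the 30 was looser than the membership. Of the 29 pairs of neighbours in the ranking, 1 kept the same order in all 6 arrays, so most neighbours cannot be ordered beyond their spread. Yet 29 of the 30 stayed among the 50 brightest genes of every array, and 25 to 29 of them were among each array's own 30. Just outside lay RPL6 at 14.17 and RPL27A at 14.13. In the 7 arrays of hearts given stem cells, 27 of the 30 again ranked among the top 30. Of the 30 brightest probe sets of any kind, 12 carried no gene symbol in the annotation used, so genes are missing from this ranking.

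Whole functional groups had low median SDs like their leaders, though some leaned towards 1 animal. The 60 oxidative phosphorylation genes above the filter, which encode the respiratory complexes and ATP synthase, had a median level of 12.78 and a median SD of 0.171. Of these genes, 0 were among the 10% of genes with the largest SD. Replicate 3 was the highest array for 35 of the 60, beside 20.1% of all genes. The 61 ribosomal and translation genes had a median level of 13.82 and a median SD of 0.128, also with 0 in that top 10%. Replicate 2 was the highest array for 38 of them, beside 29.7% of all genes. The 6 thick filament genes (median 13.47) and 21 genes of the tricarboxylic acid cycle (11.71) had 0 as well. Fatty acid oxidation genes had a median level of 11.56 and a median SD of 0.268, with 1 of 24 in the top 10%. That 1 was ANGPTL4, a secreted inhibitor of lipoprotein lipase, which read 4.54 in replicate 1 and 8.96 in replicate 5. The fuel switch gene PDK4, by contrast, stayed within 13.22 to 13.59. Replicate 1 was the highest array for 14 of the 24 fatty acid oxidation genes, beside 14.7% of all genes. It was also highest for 12 of the 21 tricarboxylic acid cycle genes.

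Other muscle and housekeeping groups were nearly as even. Median SDs were 0.249 for 20 glycolysis and glycogen genes, 0.205 for 13 creatine kinase and phosphate transfer genes, 0.189 for 32 proteasome genes and 0.206 for 7 cardiac transcription factors. Of these, 1 gene in all reached the top 10%, the brain-type creatine kinase CKB, with 6.88 in replicate 1 and 8.54 in replicate 2. Calcium handling genes had a median SD of 0.387 and 2 of 15 in the top 10%. One of them was SLN, the sarcolipin that restrains the calcium pump in atria, which read 7.15 in replicate 2 and 3.62 in replicate 6. Its ventricular counterpart PLN was steady at 13.49 to 14.04, with replicate 2 lowest. The thin filament and Z-disc genes had a low median SD of 0.205, but 5 of 23 in the top 10%, led by BAG3 and by the repair protein XIRP2, which read 7.43 in replicate 3 and 10.77 in replicate 2.

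Antioxidant and metallothionein genes (25, median SD 0.254), oxygen and fatty acid carriers (6, with 1 in the top 10%) and cardiac ion channels and junctions (8, median SD 0.321) had median SDs close to that of all genes. The gap junction protein GJA1 read 12.74 to 13.78, with replicate 5 highest. Its conduction-system relative GJA5 ranged further, from 5.15 in replicate 6 to 7.95 in replicate 2. HBB, the adult beta globin of red cells, read 9.40 to 10.25, and 3 of 5 red cell markers were above the filter. No mitochondrially encoded gene was named on the array.

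**Figure D2:**
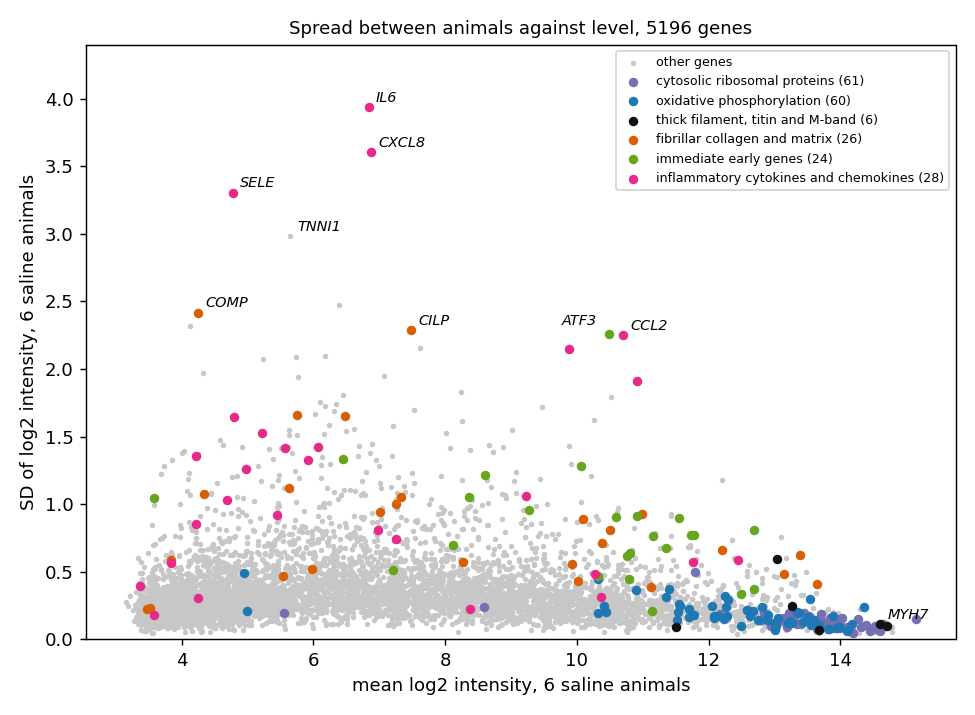
SD of log2 intensity over the 6 saline animals (vertical axis) against the mean log2 intensity (horizontal axis) for 5196 genes in grey, with 6 gene lists in colour. Filament, ribosomal and oxidative phosphorylation genes sit at the lower right, with median SDs of 0.104 to 0.171, while inflammatory genes reach 3.94 for IL6.

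Spread between animals was small for most genes and large for a few. The median SD was 0.305, the 90th percentile 0.644, and 161 genes, or 3.1% of all, had an SD above 1. The median SD over 4 equal groups of genes by level was 0.260, 0.373, 0.354 and 0.240 from dimmest to brightest. The part of signal level in the spread was not tested. Genes with an SD above 1 numbered 25, 72, 50 and 14 in those groups, and the 30 most variable genes 4, 14, 6 and 6. These 30 had a median SD of 2.02. Since they were ranked by that SD, their spread is a description and not a test. Of the 30 probe sets with the largest SD of any kind, 13 carried no gene symbol, with SDs up to 3.79. Next in rank after the 30 genes was PRELP, with an SD of 1.66 and 9.32 in replicate 2 against 4.33 to 7.09 elsewhere. Without replicate 2 its SD was 0.997. PTGS2 followed with an SD of 1.64, at 6.67 and 7.06 in replicates 5 and 6 against 3.32 to 4.26 elsewhere.

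The 3 most variable genes, IL6, CXCL8 and SELE, belong to the inflammatory list, which held 6 of the 30; 15 of the 30 were in no list. IL6, the cytokine that drives the acute phase response, read 3.77, 3.85, 5.09, 4.57, 11.68 and 12.08 in replicates 1 to 6, an SD of 3.94. Replicates 5 and 6 were far above the other 4, of which the lowest read close to the filter. Without replicates 5 and 6 the SD fell to 0.629. CXCL8, the interleukin 8 that draws neutrophils, had the same shape: 4.15, 4.96, 3.80, 5.44, 11.79 and 11.14, with an SD of 3.60 and 0.748 without replicates 5 and 6. SELE, the E-selectin that activated endothelium displays to catch white cells, read 2.13, 2.39, 2.94 and 3.21 in replicates 1 to 4, which is below the filter, against 9.50 and 8.49 in replicates 5 and 6. Its SD of 3.30 was 0.494 without those 2.

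By mean absolute distance between log2 deviations over the 6 animals, the genes nearest to IL6 were SELE (0.58), CXCL8 (0.77) and C1H15orf48 (1.92). C1H15orf48 read 4.88 to 6.08 in replicates 1 to 4 and 8.81 and 8.19 in replicates 5 and 6, with an SD of 1.74 and 0.556 without them.

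A graded version of the pattern appeared in the chemokines. CCL2, which recruits monocytes, read 7.28, 9.13, 10.47, 11.38, 13.43 and 12.50, an SD of 2.25. CXCL2, another neutrophil attractant, read 9.42, 8.63, 9.87, 11.45, 13.13 and 13.02, an SD of 1.91 and 1.19 without replicates 5 and 6. In both genes replicates 5 and 6 were again highest, but the other 4 animals were spread out below them instead of being level. PTX3, a secreted pattern recognition protein of innate immunity, read 6.23 in replicate 1, 9.50 to 10.06 in replicates 2 to 4, and 12.57 and 11.37 in replicates 5 and 6. Its SD of 2.15 was 1.32 without replicate 1.

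Replicates 5 and 6 were the 2 highest arrays for 15 of the 30 most variable genes, for 33 of the 100 most variable and for 51 of the 161 with an SD above 1, where they were for 7.24% of all genes. Replicate 2 alone was highest for 51 of the 161 as well. Of the 28 inflammatory genes above the filter, 18 had replicates 5 and 6 highest. This list of cytokines, chemokines and their induced genes had a median SD of 1.04, with 19 members in the top 10% of all genes by SD. Its mean was 8.14 and 7.91 in replicates 5 and 6 and 5.86 to 6.62 in the others. Its median SD without those 2 animals was 0.445. The 2 brightest members ranged less: VCAM1, an adhesion molecule, ran from 11.73 to 13.14 and NFKBIA, the inhibitor that NF-kappa-B itself induces, from 11.23 to 12.54. CXCL2, the next brightest, ranged widely, from 8.63 to 13.13.

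Genes of immune cells showed part of this pattern. S100A9, a calcium-binding protein abundant in neutrophils, read 7.32, 5.37, 7.97, 8.48, 9.78 and 10.49, with replicates 5 and 6 highest. CD83, a surface protein of activated dendritic cells, read 5.23 to 7.48 in replicates 1 to 4 and 9.38 and 9.54 in replicates 5 and 6, an SD of 1.70 and 1.05 without them. Of 11 neutrophil and mast cell markers on the array, 5 were above the filter, and their summed intensity was 1457 and 1718 in replicates 5 and 6 and 467 to 772 in the others. S100A9 alone gave 882 and 1440 of those 2 sums, and without it they were 575 and 278, against 282 to 425 in the others. It was the only one of the 5 with replicates 5 and 6 highest, and the mast cell receptor gene MS4A2 was lowest there, at 7.10 and 6.86 against 7.55 to 8.16. The macrophage list, with 18 of 23 markers above the filter, had its highest sum in replicate 2, 10117. It summed to 6522 and 4966 in replicates 5 and 6, inside and below the 6305 to 7788 of replicates 1, 3 and 4. By mean log2 level replicate 2 was highest at 7.57, replicate 5 next at 7.27 and replicate 6 lowest at 6.79. Replicates 2 and 5 were highest for 7 and 6 of the 18, beside 29.7% and 10.9% of all genes. The lymphocyte list, with 10 of 21 above the filter, summed to 1766 to 2891, again highest in replicate 2. The share of these cells in the inflammatory pattern was not tested.

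Only part of the endothelial list followed replicates 5 and 6. Of its 22 genes above the filter, 8 had replicates 5 and 6 highest, beside 7.24% of all genes. Replicate 2 was highest for 8 others, a share near its 29.7% of all genes. SELP, the stored P-selectin, read 2.64 to 3.88 in replicates 1 to 4, 6.34 in replicate 5 and 4.96 in replicate 6. THBD, the anticoagulant thrombomodulin, read 9.61 in replicate 5 and 7.19 in replicate 6 against 4.36 to 6.22 elsewhere, an SD of 1.81, 1.04 without replicate 5 and 0.821 without both. The identity markers of endothelium ranged less and were highest in replicate 2: CDH5 read 9.72 to 10.53 and PECAM1 10.04 to 11.05. CLDN5, a tight junction protein, was high in replicate 5 alone, 8.36 against 4.52 to 5.69.

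Several stress and growth factor genes were high mainly in 1 of these 2 animals. DDIT3, a transcription factor of the unfolded protein response, read 9.40 in replicate 5 and 4.17 to 6.41 elsewhere, with an SD of 1.94, 0.870 without that animal and 0.470 without replicates 5 and 6. DNAJB1, a heat shock co-chaperone, read 9.38 in replicate 5 and 5.66 to 6.41 elsewhere. STEAP4, a metal reductase of inflamed tissue, read 8.28 in replicate 5 and 3.07 to 4.08 elsewhere, with an SD of 1.97 and 0.413 without it. AREG, a ligand of the epidermal growth factor receptor, read 8.84 in replicate 6 and 2.80 to 3.45 elsewhere, so that its SD of 2.32 was 0.278 without replicate 6. The SDs of STEAP4 and AREG thus rested on 1 animal each. MT1A, a metallothionein that binds zinc and copper, was high in both, 7.93 and 8.87 against 4.59 to 5.71, an SD of 1.69 and 0.488 without them, through a probe set that can match related metallothioneins.

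The 25 heat shock genes had a median SD of 0.377, which was 0.224 without replicates 5 and 6. Those animals were the 2 highest for 8 of the 25, beside 7.24% of all genes. BAG3, the co-chaperone that keeps Z-discs in repair, also had replicates 5 and 6 highest, at 12.22 and 11.78. Its widest gap was at the low end, with 7.24 in replicate 3 against 9.95 to 12.22 elsewhere. Its SD of 1.79 was 0.884 without replicate 3. Hypoxia response genes (14, median SD 0.284) had their highest mean in replicate 5, 7.89 against 7.37 to 7.51. ADM, the vasodilator adrenomedullin, read 10.12 there against 7.79 to 8.95, while PGK1 stayed at 11.62 to 11.92.

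**Figure D3:**
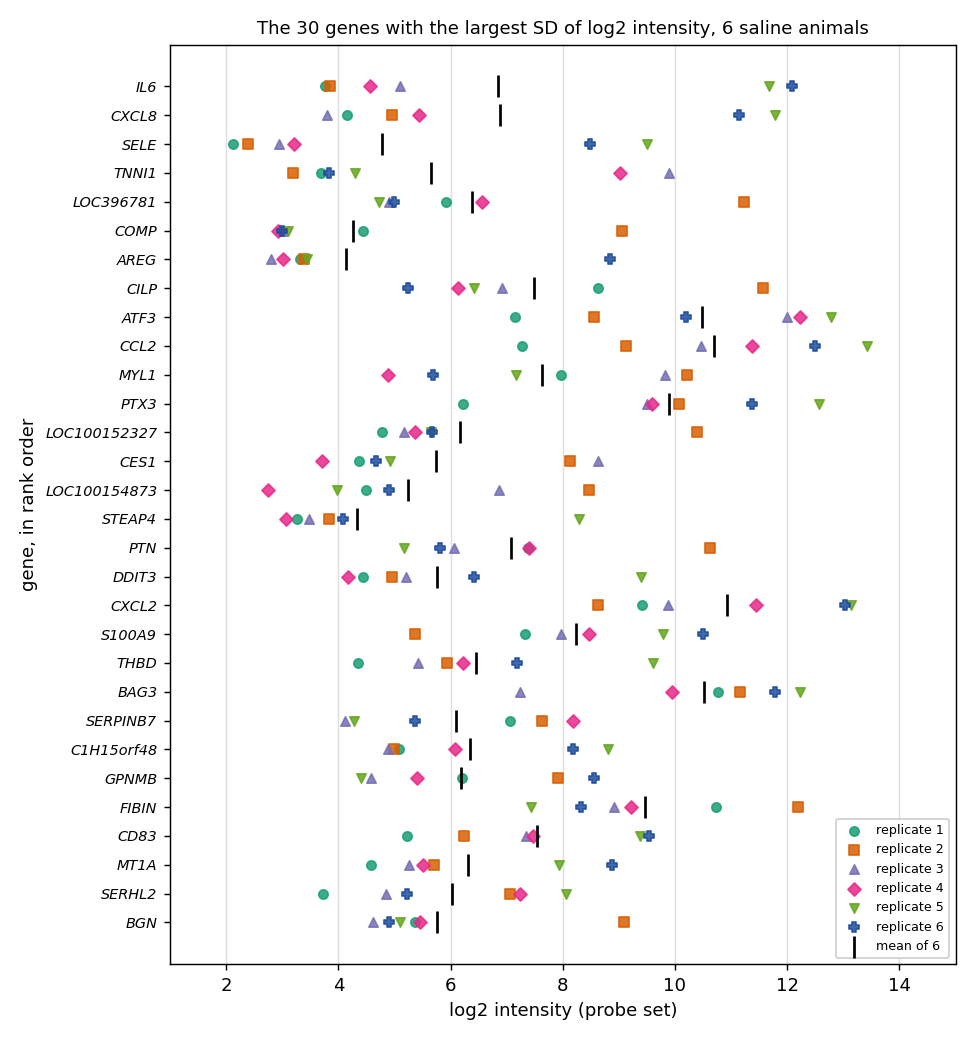
Log2 probe set intensity (horizontal axis) of the 30 genes with the largest SD over the 6 saline animals, in rank order (vertical axis), with 1 symbol per animal and a black bar at the mean of 6. Replicates 5 and 6 lie far to the right for IL6, CXCL8 and SELE, replicate 2 for COMP, CILP and BGN, and replicates 3 and 4 for TNNI1.

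The second pattern was a matrix programme that stood highest in replicate 2. CILP, a cartilage and scar matrix protein, read 8.64, 11.56, 6.92, 6.14, 6.43 and 5.25 in replicates 1 to 6, an SD of 2.29 that was 1.25 without replicate 2. COMP, which helps collagen assemble, read 9.05 in replicate 2, 4.45 in replicate 1 and 2.92 to 3.11 in the rest. In both genes replicate 1 was the next highest. COMP's SD of 2.42 was 0.646 without replicate 2. BGN, the small proteoglycan biglycan, read 9.09 in replicate 2 and 4.63 to 5.45 elsewhere, an SD of 1.66 and 0.340 without it.

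PTN, the heparin-binding growth factor pleiotrophin, belonged here too, with 10.62 in replicate 2 and 5.18 to 7.39 elsewhere, and its SD of 1.95 was 0.986 without replicate 2. FIBIN, a small secreted protein, read 12.19 in replicate 2, 10.72 in replicate 1 and 7.43 to 9.21 in the rest. LOC396781, which the gene table also lists as the immunoglobulin G heavy chain, read 11.22 in replicate 2 and 4.73 to 6.55 elsewhere, an SD of 2.47 and 0.784 without it. LOC100152327, which has no gene name in the tables used, read 10.40 there against 4.78 to 5.67, an SD of 2.10 and 0.372 without it.

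The matrix list as a whole did the same. Of its 26 members above the filter, replicate 2 was highest for 24, where it was highest for 29.7% of all genes. The list mean was 9.61 in replicate 2 and 7.46 to 8.09 elsewhere. The list's median SD of 0.685 became 0.430 without replicate 2. The brightest matrix genes had smaller SDs than COMP, CILP and BGN: DCN, the proteoglycan decorin, ran from 12.42 to 13.92, SPARC, a collagen-binding protein of remodelling tissue, from 12.53 to 14.39, and MGP, an inhibitor of calcification, from 12.99 to 14.23. The probe sets for COL1A2 and COL3A1, the genes of the main scar collagens, averaged 3.52 and 3.48, near the filter, so no collagen I or III level can be read from them.

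Fibroblast markers were also highest in replicate 2. It was the highest array for 9 of the 12 fibroblast and myofibroblast markers, beside 29.7% of all genes. All 12 were above the filter, and their summed intensity was 77813 in replicate 2 and 27970 to 39221 elsewhere. Their median SD of 0.549 became 0.334 without replicate 2. THY1, a fibroblast surface protein, read 9.54 in replicate 2 and 5.66 to 6.77 elsewhere, and FAP, a protease of activated fibroblasts, 7.65 and 3.68 to 5.92. The matrix and fibroblast lists share members, and the part of fibroblast content, or of the 3′ to 5′ ratios that were also extreme in replicate 2, in the matrix pattern was not tested.

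Replicate 2 was also highest for some markers of other cell types. These lists are small, and replicate 2 was highest for 29.7% of all genes. It was highest for 3 of the 5 nerve and Schwann cell markers, whose mean was 5.71 there against 4.49 to 4.81. UCHL1, a neuronal hydrolase, read 7.72 against 3.78 to 4.87 and the glial S100B 7.38 against 5.17 to 6.11, while the myelin gene MBP was highest in replicate 5. Replicate 2 led both mesothelial and epicardial genes above the filter, KRT8 at 7.08 against 3.75 to 6.61 and, narrowly, WT1 at 4.29 against 3.87 to 4.23. For the fat cell list (13 of 23 above the filter) the measures differed: its mean log2 level was highest in replicate 2, 7.32 against 6.71 to 7.06, but its summed intensity was not, with LPL, the brightest member, lowest there at 12.63. ADIPOQ and LEP, the defining hormones of fat, were below the filter at 2.71 and 2.91. CD163, the scavenger receptor of tissue macrophages, read 10.54 in replicate 2 and 7.30 to 9.06 elsewhere. A second CD163 probe set was highest in replicate 4 instead, at 6.61, with 5.62 in replicate 2. The muscle genes MYH7 and MYL2 were not low in replicate 2, at 14.72 and 14.76. Its list means were lowest, though, for thick filament (13.28 against 13.37 to 13.56) and fatty acid oxidation genes (10.31 against 10.45 to 10.78). They were also lowest for the tricarboxylic acid cycle (10.75 against 10.81 to 11.10) and, narrowly, oxidative phosphorylation (12.28 against 12.30 to 12.59). Creatine kinase and glycolysis lists had their highest means in replicate 2, and muscle content was not tested. TTN, the giant spring protein titin, with an exceptionally long message, read 12.02 there and 12.79 to 13.59 elsewhere; its relation to the 3′ to 5′ ratios was not tested.

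Matricellular genes, which signal within the scar instead of building it, were shared between both patterns. Their median SD was 0.853, with 13 of 20 in the top 10%. Replicate 2 was highest for 9 of 20, beside 29.7% of all genes, among them THBS2, an antiangiogenic thrombospondin, at 9.41 against 5.19 to 6.01, and POSTN, the periostin of activated fibroblasts, at 11.03 against 7.15 to 10.14. SPP1, the osteopontin of macrophages and scar, read 9.78 there against 5.16 to 7.92. Replicates 5 and 6 were highest for 6 others, beside 7.24% of all genes, among them THBS1, a thrombospondin that activates TGF-beta, at 14.29 and 13.68 against 12.38 to 13.13, and CYR61, a stretch-induced matricellular gene, at 12.07 and 11.87 against 10.23 to 11.43. Smooth muscle genes (16, median SD 0.445) included CNN1, the calponin of contractile vessels, which read 10.23 in replicate 6 and 6.49 in replicate 3.

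**Figure D4:**
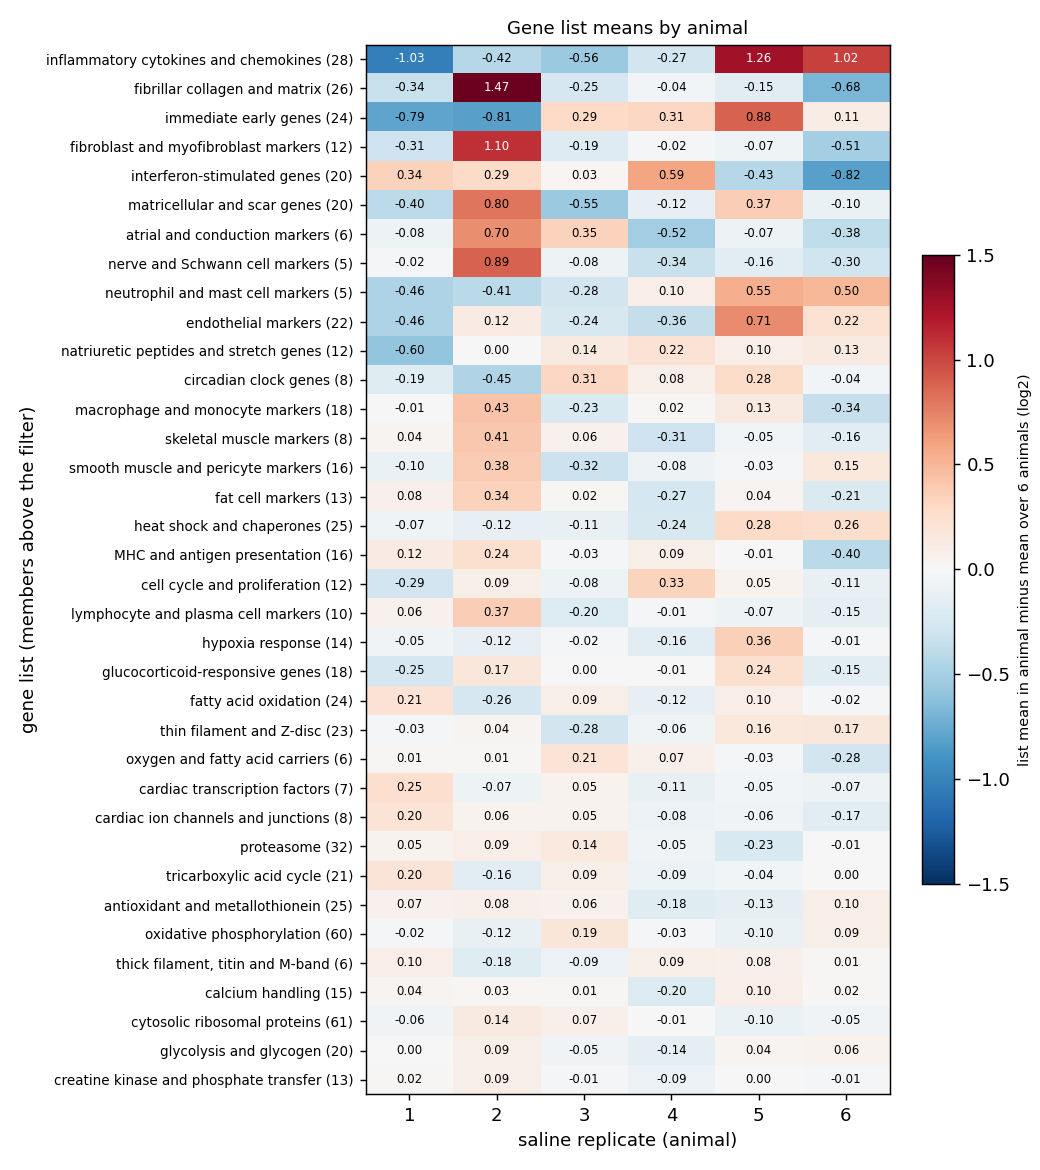
Mean log2 intensity of each gene list in each saline animal (horizontal axis) minus its mean over the 6 animals, for the 36 lists with at least 5 members above the filter (vertical axis, ordered by the SD of the list mean; member numbers in brackets). Red marks animals above the list's mean and blue those below, and strong red marks the matrix and fibroblast lists in replicate 2 and the inflammatory list in replicates 5 and 6.

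Another pattern concerned a single fetal muscle gene. TNNI1, the slow skeletal troponin I that the heart expresses before birth, read 3.69, 3.19, 9.89, 9.03, 4.29 and 3.83 in replicates 1 to 6, an SD of 2.98. Replicates 3 and 4 were high and the other 4 near the filter. The adult cardiac form TNNI3 averaged 13.89 and the fast skeletal form TNNI2 stayed at 3.98 to 4.57. Only 4 of the 161 genes with an SD above 1 had replicates 3 and 4 as their 2 highest arrays, against 6.27% of all genes. MYL1, a fast skeletal myosin light chain, was arranged differently, at 7.98, 10.22, 9.82, 4.89, 7.17 and 5.68, with replicates 2 and 3 highest. The skeletal muscle list (8 of 14 above the filter) had a median SD of 0.263, and its other variable members ranged less: TNNT1 read 9.43 to 11.01 and TPM3 9.74 to 11.06.

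Other variable genes had replicates 2 and 3 highest. CES1, a carboxylesterase of lipid and drug metabolism, read 8.12 and 8.63 there and 3.71 to 4.92 elsewhere, and LOC100154873, unnamed in the tables used, 8.46 and 6.86 against 2.75 to 4.91. SERPINB7, a protease inhibitor, was bimodal in another way, at 7.07, 7.62 and 8.19 in replicates 1, 2 and 4 and 4.11 to 5.37 in the rest. GPNMB, a glycoprotein of lipid-laden macrophages, was highest in replicates 2 and 6, at 7.91 and 8.55 against 4.41 to 6.21. SERHL2, a hydrolase-like gene, ranged from 3.73 in replicate 1 to 8.06 in replicate 5.

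The list of natriuretic peptide and stretch genes had a median SD of 0.845, with 7 of 12 in the top 10%, and 0.548 without replicates 5 and 6. Its most variable members were TNNI1, ATF3 and UCHL1, described with other groups here. NPPA, the atrial natriuretic peptide, read 10.60 in replicate 5 and 13.02 in replicate 6 and averaged 11.43 ± 0.93 (SD, n = 6). Without replicate 6 its SD was 0.567. NPPB, the brain natriuretic peptide, named here after its values were seen, read 12.44, 13.14, 10.42, 11.77, 11.69 and 13.73, so that replicate 3 was lowest and replicate 6 highest. ANKRD1, a stretch-responsive titin-binding protein, varied less, from 13.09 to 14.06. The list mean was lowest in replicate 1, at 10.04 against 10.65 to 10.86. Atrial and conduction genes (6, median SD 0.724) include NPPA and GJA5, and the atrial light chain MYL4 stayed at 7.42 to 8.73.

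Most immediate early genes were lowest in replicates 1 and 2. ATF3, a stress-induced transcription factor, read 7.15 and 8.56 in replicates 1 and 2, 10.19 in replicate 6 and up to 12.78 in replicates 3 to 5, an SD of 2.26. FOS, the classic first-wave gene, read 12.06 and 11.48 in replicates 1 and 2 and 12.60 to 13.60 in the others. NR4A3, an orphan nuclear receptor induced within an hour of many stimuli, read 8.55 and 8.89 against 9.48 to 11.71. DUSP1, among the brightest of the list, differed, with 12.55 in replicate 1 and its lowest values, 12.03 and 12.10, in replicates 2 and 6. Replicates 1 and 2 were the 2 lowest arrays for 17 of the 24 immediate early genes above the filter and for 5.0% of all genes. The list's median SD was 0.771, with 16 of 24 in the top 10%. Its mean of 9.33 and 9.31 in replicates 1 and 2 compares with 10.23 to 11.00 in the other 4. Replicates 1 and 2 were also the 2 lowest arrays for 10 of 28 inflammatory genes and 4 of 12 natriuretic and stretch genes.

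Interferon-stimulated genes ran against the inflammatory ones. RSAD2, the antiviral enzyme viperin, read 8.13, 7.44, 6.85, 7.93, 4.69 and 4.69, with replicates 5 and 6 lowest. IFI44L read 6.99 to 7.79 in replicates 1 to 4 and 5.68 and 5.16 in replicates 5 and 6, and GBP2, an interferon-induced GTPase, 7.78 to 9.18 against 6.71 and 6.48. Replicates 5 and 6 were the 2 lowest arrays for 13 of 20 interferon genes, where they were for 19.4% of all genes. The list's median SD was 0.626, with 9 in the top 10%, and 0.388 without those animals. Antigen presentation genes (16, median SD 0.358) had the 2 lowest arrays there in 5 cases, beside 19.4% of all genes. Replicate 2 was the highest array for 10 of the 16, beside 29.7% of all genes. SLA-3, a pig class I histocompatibility gene, departed with 10.76 in replicate 3 and 7.16 to 9.68 elsewhere; alleles of such genes differ between animals, and whether probe binding differed was not tested.

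Clock and hormone-responsive genes varied moderately. The 8 circadian clock genes had a median SD of 0.605 with 4 in the top 10%. BHLHE40, a clock repressor, read 6.08 to 7.17 in replicates 1 to 4 and 8.96 and 8.02 in replicates 5 and 6, whereas ARNTL, the activator BMAL1, was lowest in those 2, at 5.08 and 5.91 against 6.14 to 7.47. The time of day of each biopsy was not given. Glucocorticoid-responsive genes (18, median SD 0.483, 6 in the top 10%) included CRISPLD2, a secreted protein, which was highest in replicate 2 at 10.26, and TXNIP, which restrains thioredoxin, lowest in replicates 5 and 6 at 12.98 and 12.77. Cell cycle genes were dim, with a median level of 4.37 for 12 of 22 above the filter, and TOP2A, the topoisomerase of dividing cells, read 5.75 in replicate 4 and 3.52 to 4.28 elsewhere. CDKN1A, the p21 inhibitor of the cell cycle, was highest in replicate 5 at 8.63.

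The spread of these genes recurred in arrays that had not been used to rank them. In the 7 hearts given stem cells, 27 of the 30 most variable genes, and 84 of the 100 most variable, were among the 10% of genes with the largest SD, where 10% is the background. Their median SD there was 1.67. IL6 again ranged widely, from 3.34 to 10.99, with an SD of 2.51, and CXCL8 from 3.47 to 12.19. TNNI1 had an SD of 2.79 there. The 3 exceptions were DDIT3, with an SD of 0.216 in those hearts, STEAP4, with 0.628, and SERPINB7, with 0.612. Since the 30 were chosen for their saline SD, the sizes of the SDs in both groups are not compared.

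**Figure D5:**
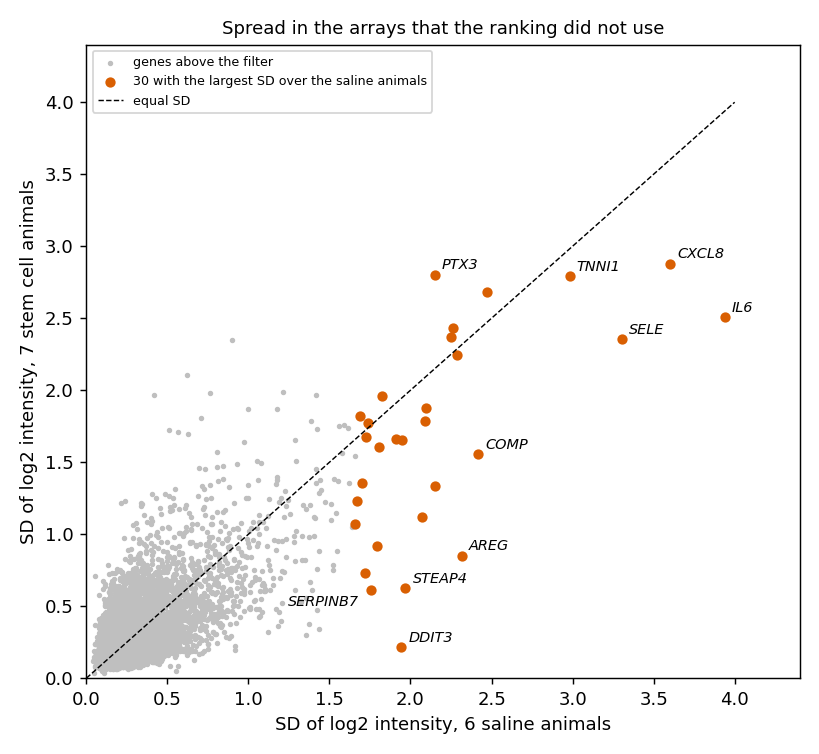
SD of log2 intensity over the 7 animals given stem cells (vertical axis) against the SD over the 6 saline animals (horizontal axis) for 5196 genes in grey, with the 30 most variable saline genes in orange and a dashed line of equal SD. CXCL8, TNNI1 and PTX3 are far from the origin on both axes, and DDIT3 lies near the bottom with an SD of 0.216 in the stem cell arrays.

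A second probe set of the same gene gave another reading that the ranking had not used. Of 1262 genes with one above the filter, the same animal was highest in both for 42.4%. Among the 107 of them in the top 10% by SD it was 71.0%, and among the other 1155 it was 39.7%. For 48 of those 107, the second probe set also had an SD in the top 10% range. For PTX3 the second probe set read 2.56, 4.36, 3.82, 3.43, 8.21 and 6.31, with replicates 5 and 6 highest and replicate 1 lowest as in the first. For BAG3 it also had replicate 3 lowest, at 4.58 against 5.69 to 7.74. For CILP it stayed at 3.22 to 3.67, near the filter, and did not show the excess of replicate 2. For POSTN it was highest in replicates 5 and 6, at 4.39 and 4.69, with 3.93 in replicate 2. IL6, CXCL8, SELE and TNNI1 had no second probe set above the filter, so their patterns rest on 1 probe set each.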

How the data were processed

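RNA from heart biopsies of 13 pigs was measured on Affymetrix porcine arrays, 1 per animal. The authors deposited 1 linear intensity per probe set, computed with GCRMA per the submitters' processing notes, which corrects background, normalizes arrays to each other and summarises probes. Its version and settings were not given in the sources. The deposited intensities were turned to log2 here. Of 24123 probe sets, 124 controls were left out; of the other 23999, 10069 had 1 gene symbol in the platform annotation, 198 several and 13732 none, and only those with 1 were named. Annotation symbols can be old; 5142 of the 5196 genes analysed matched a pig gene table (assembly Sscrofa11.1) by gene ID, with 0 symbols changed.

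Genes were kept where the mean over all 13 arrays exceeded the 40th percentile of probe sets; the highest of 17 tag controls averaged 2.62. Means, SDs and ranks were taken over the 6 saline arrays with Python 3.11.15, numpy 2.4.6 and pandas 2.3.3, and the ranking code was tested on simulated data. There is 1 group, so no test was run. Genes named in the text were drawn from the 30 highest by mean and by SD, with the 2 just outside each. They were also drawn from up to 3 members of each of 39 gene lists by mean and 3 by SD. The cell type markers and the 3 genes nearest to the most variable gene were the other sources. Not every list member or marker is named, and an exception is marked in the text. Members and lists were chosen with earlier results of these data known. Alternatives were the normalization, the filter, the measure of spread, the choice of probe set and leaving out animals. Replicate numbers only name the animals. No batch or date is given in the labels, so no value within batches could be computed.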

Additional observations from a re-analysis of the deposited data

Results flagged for a closer look

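For 236 named genes, 36 list means and 6 array measures, the gap between the most extreme animal and the next was divided by the range over the 6 saline animals. A share above Dixon's 95% critical value for 6 samples sets 1 animal apart, which chance gives in about 1 of 20 groups and which held for 6.99% of all 5196 genes. It was found for 28 of these 278 results, and its causes were not tested. Many of the genes were named for a large SD, which 1 animal apart can produce, and the list means contain some of them. The 28 are therefore not independent, and their share is not comparable with that of all genes.

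Replicate 2 was the animal apart in 14 of the 28. How often each animal was apart over all genes was not counted, but replicate 2 was the highest array for 29.7% of all genes. It was high for the matrix genes COMP (0.751), BGN (0.815) and THBS2 (0.805), the fibroblast gene THY1 (0.714), the neuronal hydrolase UCHL1 (0.723), the lipid desaturase SCD (0.762), the T cell surface protein CD2 (0.653), the immunoglobulin heavy chain LOC396781 (0.720) and LOC100152327 (0.841). It was low for the calcium pump regulator PLN (0.759) and for the endothelial receptor KDR (0.661), whose mean of 2.69 lay below the filter. Its list means were high for fibrillar collagen and matrix (0.704), fibroblasts (0.698) and nerve (0.736).

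Replicate 5 was high for the metal reductase STEAP4 (0.806), the co-chaperone DNAJB1 (0.798), the tight junction gene CLDN5 (0.696), the gap junction gene GJA1 (0.639) and the mean of the hypoxia response list (0.722). Replicate 6 was high for the growth factor AREG (0.893) and for MYLPF (0.644), a skeletal light chain below the filter. It was low for the fatty acid carrier FABP4 (0.676), which read 10.39 there and 11.63 to 12.23 elsewhere, and for the transcription factor MEF2A (0.675).

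Replicate 1 was high for TNNT2 (0.644), within an SD of 0.051, and low for KRT19 (0.649), below the filter, and for the mean of the natriuretic and stretch list (0.735). Replicate 4 was high for TOP2A (0.661) and low for the mean of the calcium handling list (0.711).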

How the results depend on the processing

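No paired analysis was possible because the results describe 1 group and come from no test. Leaving out each animal in turn kept 29 to 30 of the 30 most abundant genes and 21 to 28 of the 30 most variable, gave 138 to 188 genes with an SD above 1 where all animals gave 161, and gave 5 to 9 gene lists with a median SD of at least 2 times that of all genes, where all animals gave 7. The lowest of the shared counts came without replicate 2, when the genes lost included COMP, CILP, BGN and LOC396781. Without replicates 5 and 6 together, an alternative chosen after seeing the data, 16 of the 30 most variable genes were shared, and IL6, CXCL8 and SELE were among those lost. With the median absolute deviation in place of the SD, 14 of the 30 were shared and 92 genes exceeded 1; this measure gives little weight to 1 or 2 animals of 6. Averaging all probe sets of a gene shared 16 of the 30 most abundant genes and 26 of the most variable, and dividing each SD by its trend with the mean shared 21 of the latter. A further quantile normalization, centring each array, a median, no filter, a stricter filter (60th percentile) and a floor at the 20th left 27 to 30 of each 30 shared. Values near the filter of 3.36 hold little signal over background.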
